A study of Mus musculus with 6 samples.

Results

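Translation initiation factors are the proteins that bring a ribosome, an initiator tRNA and an mRNA together at a start codon. Their genes were followed here in sorted adult mouse hematopoietic stem cells (HSCs), with 3 arrays labelled PU.1 ki/ki, from mice homozygous for a knock-in at the PU.1 gene, and 3 labelled wild type. Members were the genes whose symbol in the array annotation begins with Eif1, Eif2, Eif3, Eif4, Eif5 or Eif6, leaving out Eif2ak2 and Eif2s3y. This gave 45 of 18193 named genes, read by 128 probe sets, and for each gene the probe set with the highest mean over the 6 arrays was used. A further 6 probe sets assigned to several genes, at least 1 of which fitted the rule, were not used. All cells came from adult mice and were sorted for Sca1, cKit and CD150 in the absence of lineage markers and CD48. The labels give no strain or sex, do not describe the knock-in allele beyond its name, and do not say whether a sample was 1 animal or a pool, so the spread between arrays may be technical. The series title concerns PU.1 as a restraint on the proliferation of adult HSCs. The question taken from the design was how initiation factor transcripts in PU.1 ki/ki HSCs compare with those in wild-type HSCs.

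In the main route of initiation, eIF2 carries the initiator tRNA to the small ribosomal subunit, eIF3 organises the subunit, and the eIF4 factors recruit the capped mRNA and unwind it. eIF2B recharges eIF2 with GTP, and stress kinases block that step by phosphorylating eIF2. The eIF4E-binding proteins hold eIF4E away from its scaffold until mTORC1 phosphorylates them. Adult HSCs are known for a low rate of protein synthesis, held in check in part by the eIF4E-binding proteins.

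No member passed the test between the groups. Of 45 members, 28 had a higher and 17 a lower mean log2 level in PU.1 ki/ki, and the median difference was 0.15, beside 0.01 over all 18193 genes. Among genes of like brightness there was no such gap: with a mean intensity of at least 512, the median was 0.14 over 32 members and 0.16 over 3277 genes. At an adjusted p under 0.05 (limma, over all probe sets) 0 of 45 members were called, where 0.0% of all probe sets were, and the lowest adjusted p of a member was 0.458. With no adjustment 2 members had a p under 0.05, both higher in PU.1 ki/ki, where 8.66% of all genes were called, 4.39% higher and 4.27% lower. Separation without overlap, all 3 arrays of one group above all 3 of the other, was seen in 5 members (11.1%), of which 4 read higher in PU.1 ki/ki and 1 lower, where 12.8% of all genes did not overlap, 6.44% higher and 6.36% lower. The share of separated members is thus close to that of genes in general. With a mean intensity of at least 512 it was lower, at 2 of 32 members (6.25%) beside 14.3% of 3277 genes. After a further quantile normalization or after centring each array on its median 24 members were higher and 21 lower, and the median difference was 0.04 in both cases. Centring moved the median of all genes from 0.01 to -0.10, and quantile normalization moved it to -0.07. Values below are array intensities, and differences are log2(intensity + 1) of PU.1 ki/ki minus wild type, with the standard error (SE) of the limma fit.

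**Figure D1:**
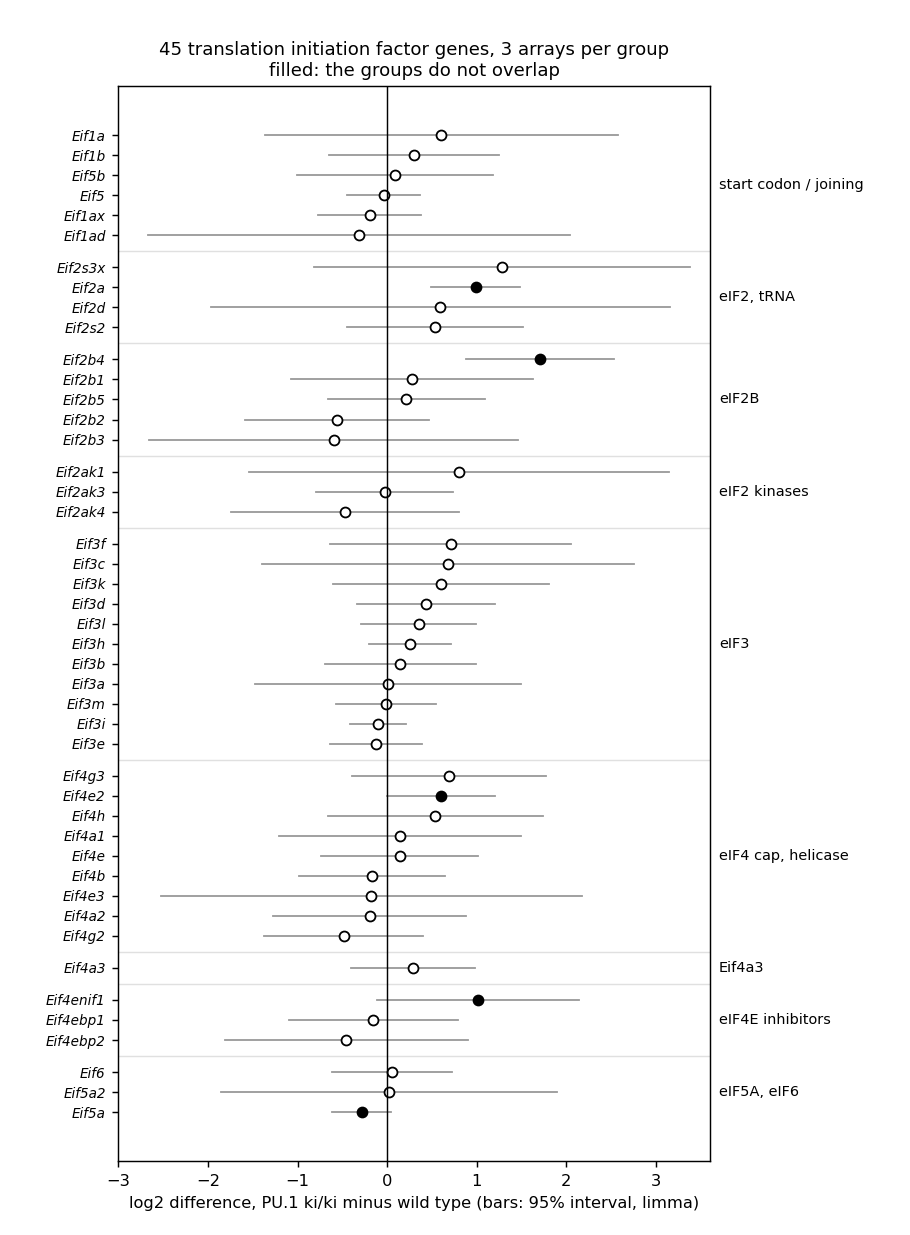
Log2 difference (x axis, PU.1 ki/ki minus wild type) with its 95% interval for each of the 45 members (y axis), ordered within functional groups. Filled points mark the 5 members whose groups do not overlap, and the intervals of 2 of these, Eif2b4 and Eif2a, lie above 0.

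The arrays themselves set how finely members could be compared. Signal was called lost where 1 array fell to 4-fold or more under the median of its 5 companions, among probe sets in which this median reached 512. Over all probe sets wild-type replicates 2 and 3 had lost 11.5% and 11.3% of such bright signals, and the other 4 arrays 0.119 to 1.12%. Of the members' probe sets, wild-type replicate 2 had lost 4 of 64 (6.25%) and replicate 3 had lost 5 of 64 (7.81%), while the other 4 arrays had lost 0. The members varied more between wild-type than between PU.1 ki/ki arrays: the SD of log2 values was larger in wild type for 36 of 45 (80.0%), as for 74.4% of all genes, with a median SD of 0.55 against 0.29. The stem cell and gate markers Kit, Slamf1 (CD150), Procr and Mecom lay above the array median on all 6 arrays. For Slamf1 this was narrow on wild-type replicates 2 and 3, whose medians were 43 and 41. It read 696, 1525 and 170 in PU.1 ki/ki and 440, 54 and 42 in wild type. Ly6a (Sca1) was not analysed here. Cd48, whose protein the sort selected against, also lay above the array median on all 6 arrays. It read 230, 90 and 290 in PU.1 ki/ki and 704, 193 and 75 in wild type. Markers of other cell types were summed on each array, and the sums of 3 lists did not overlap between groups. B cell markers (3 measured of 4, Cd79a and Ebf1 under the array median on all arrays) summed to 63 to 73 in PU.1 ki/ki and 74 to 143 in wild type, and T cell markers (3 of 4) to 80 to 104 and 146 to 228. Erythroid markers (3 of 5) summed to 234 to 243 in PU.1 ki/ki and 122 to 225 in wild type, but their members ran in opposite directions. Klf1 read 118, 123 and 159 in PU.1 ki/ki and 42, 21 and 11 in wild type, Hba-a1 read 36, 47 and 36 against 65, 85 and 48, and Epor overlapped. The sums of 4 megakaryocyte genes overlapped, at 1002 to 2330 and 650 to 1541. The 6 myeloid genes summed to 8730 to 10447 and 9738 to 15065, with Itgam and Cd14 under the array median on all arrays. The part of these cell type markers in the results was not tested. In bulk samples fewer cells of a type and less RNA per cell cannot be told apart.

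eIF2B, the exchange factor that recharges eIF2, held the member with the lowest p. Eif2b4, the delta subunit of its regulatory core, read 281, 208 and 334 on PU.1 ki/ki replicates 1, 2 and 3 and 79, 117 and 59 on wild-type replicates 1, 2 and 3. Every PU.1 ki/ki array lay above every wild-type array, and the means were 274 ± 63.3 and 85.0 ± 29.5 (SD, n = 3). The difference was 1.71 ± 0.32 (SE, 95% interval 0.88 to 2.54, limma adjusted p = 0.458), and 1.48 to 1.96 when single arrays were left out. It was 1.76 against wild-type replicate 1 alone, on which 1.12% of bright signals were lost. Eif2b4 has 1 probe set, so no other reading of the gene was at hand.

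The other subunits of eIF2B did not separate. Eif2b5, the catalytic epsilon subunit, read 369, 688 and 432 in PU.1 ki/ki and 366, 582 and 331 in wild type. The groups overlapped, with replicate 2 the highest array in each, and the difference was 0.21 ± 0.34 (SE, limma adjusted p = 0.870). Eif2b2, the beta subunit, read 951, 922 and 1468 in PU.1 ki/ki and 1033, 2562 and 1552 in wild type (-0.56 ± 0.40, SE), with wild-type replicate 2 above the rest. Eif2b1, the alpha subunit, differed by 0.28 and Eif2b3, the gamma subunit, by -0.60. Eif2b3 was spread widely among the PU.1 ki/ki arrays, from 52 to 395. The median difference of the 5 subunits was 0.21, with 3 higher and 2 lower, and it was 0.10 after centring and 0.06 after quantile normalization. It was -0.13 without PU.1 ki/ki replicate 1 and -0.05 without PU.1 ki/ki replicate 2, so its direction was not stable.

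eIF2 and the proteins that deliver initiator tRNA were higher in PU.1 ki/ki in 4 of 4 members, with a median difference of 0.79, and 0 of 4 passed. The median was 0.18 when all probe sets of a gene were averaged. Eif2a, a factor outside the eIF2 trimer that can deliver initiator tRNA by another route, read 529, 561 and 595 in PU.1 ki/ki and 220, 322 and 318 in wild type. The groups did not overlap, and the PU.1 ki/ki arrays lay close together (562 ± 33.01 against 287 ± 57.8, SD, n = 3). The difference was 0.99 ± 0.20 (SE, 95% interval 0.49 to 1.49, limma adjusted p = 0.463), and 0.81 to 1.08 when single arrays were left out. Its other probe sets did not share this: the second brightest read 144, 150 and 391 against 225, 383 and 155, a difference of -0.22, and the last was near the table's minimum of 10. Averaged over its 3 probe sets, Eif2a differed by 0.04.

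On their brightest probe sets the measured subunits of eIF2 itself overlapped between the groups. There they read low on wild-type replicate 3 or on wild-type replicates 2 and 3. Eif2s3x, the X-linked gamma subunit that binds GTP and the tRNA, read 2893, 3363 and 3640 in PU.1 ki/ki and 3201, 1958 and 392 in wild type. Wild-type replicate 3 was the low array, the groups overlapped, and the difference of 1.28 ± 0.82 (SE) was 0.39 without it. On another probe set of Eif2s3x that array was not low, at 1933 beside 1748 and 1636 on wild-type replicates 1 and 2 and 2042, 2071 and 2592 in PU.1 ki/ki, a difference of 0.33 without overlap. Eif2s2, the beta subunit, read 3185, 2425 and 3293 in PU.1 ki/ki and 3510, 1515 and 1591 in wild type (0.53 ± 0.38, SE). Its wild-type replicate 1 was the highest of the 6 arrays. Of the other Eif2s2 probe sets 3 had the same sign and the rest the opposite. The second brightest read 1804, 1792 and 2348 against 2386, 760 and 1954 (0.37). The next read 1513, 1089 and 1314 against 2436, 1103 and 2482 (-0.54), with wild-type replicate 3 the highest array. Eif2d, a tRNA delivery and recycling factor, read 64 on wild-type replicate 2 and between 283 and 658 elsewhere. Over the 4 members, the median level relative to each gene's mean lay between 0.24 and 0.68 for PU.1 ki/ki and at 0.56 for wild-type replicate 1, beside -0.50 and -0.47 on wild-type replicates 2 and 3. The median difference was -0.11 against wild-type replicate 1 alone. In that comparison Eif2a differed by 1.35, Eif2s3x by 0.04, Eif2s2 by -0.26 and Eif2d by -0.39. The group's median stayed positive, at 0.70 to 1.00, after removal of any 1 array. Whether lost signal on wild-type replicates 2 and 3 set this direction was not tested.

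**Figure D2:**
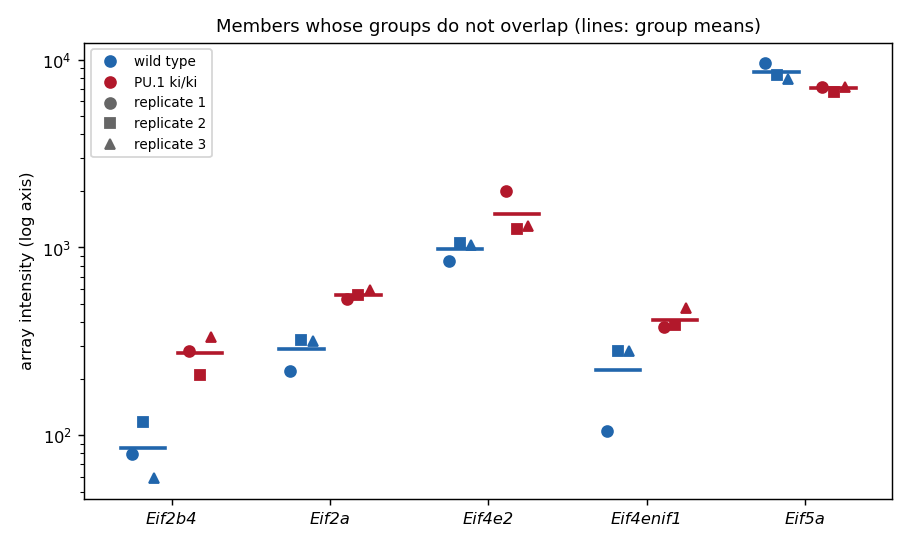
Array intensity on a log axis (y) of the 5 members whose groups do not overlap (x), with 1 symbol per array and lines at the group means. Eif2b4 shows the widest gap, and the Eif5a groups are separated by 7204 in the highest PU.1 ki/ki array and 7910 in the lowest wild-type array.

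The kinases that phosphorylate eIF2 did not separate, and 0 of 3 had an unadjusted p under 0.05. Eif2ak1, the heme-regulated kinase HRI, read 694, 334 and 327 in PU.1 ki/ki and 619, 347 and 66 in wild type. The difference was 0.80 ± 0.92 (SE, limma adjusted p = 0.810), and -0.13 without wild-type replicate 3. Its second probe set kept the groups apart, at 365, 435 and 584 against 297, 226 and 186 (0.96, limma adjusted p = 0.510), and 2 dim probe sets had the opposite sign. Eif2ak4, the amino acid sensor GCN2, read 65, 67 and 91 in PU.1 ki/ki and 193, 54 and 102 in wild type (-0.47 ± 0.50, SE). Its highest value was on wild-type replicate 1 and its lowest on replicate 2. Eif2ak3, the kinase PERK of the endoplasmic reticulum stress response, differed by -0.03, with 129 to 166 in PU.1 ki/ki and 106 to 216 in wild type.

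eIF3, the scaffold of the small subunit, was the largest complex with 11 members, of which 8 were higher and 3 lower (median difference 0.25, 0.15 after centring and 0.14 without wild-type replicate 2). None had an unadjusted p under 0.05 and none was without overlap. Eif3a, its largest subunit, read 6330, 7575 and 5104 in PU.1 ki/ki and 8765, 10347 and 2628 in wild type. Both the highest and the lowest of the 6 arrays were wild type, and the difference of 0.01 ± 0.58 (SE) was -0.09 after centring. Eif3d, a subunit that can itself bind the cap, had the lowest p of those higher, with 1208, 1657 and 1201 against 1045, 691 and 1346 (0.44 ± 0.30, SE, limma adjusted p = 0.713). Eif3i, of the module at the mRNA entry side, was among the steadiest members, with 5943, 6570 and 6051 against 6401, 7193 and 6387 (-0.11 ± 0.12, SE). Its highest array was 1.21 times its lowest, where the median member had a ratio of 2.67 and the median gene 2.80. The other Eif3i probe set was less steady, with a ratio of 2.07 and the opposite sign. It read 2583, 3382 and 2961 against 2209, 3299 and 1633 (0.37).

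The other eIF3 subunits lay between -0.13 for Eif3e and 0.71 for Eif3f. Eif3f, an Mpr1/Pad1-type subunit, read 3762, 4454 and 4645 in PU.1 ki/ki and 3840, 1181 and 3929 in wild type. Only wild-type replicate 2 lay apart, and without it the difference was 0.14. Eif3c, the subunit that contacts eIF1 and eIF5, read 4421, 2838 and 1867 against 3432, 564 and 2933 (0.68, -0.15 without wild-type replicate 2). Eif3k ranged from 889 to 3040 within wild type and from 2271 to 2463 within PU.1 ki/ki (0.60). All 11 eIF3 members had a larger SD of log2 values in wild type, with a median SD of 0.49 against 0.18. The remaining differences were 0.35 for Eif3l, 0.25 for Eif3h, 0.15 for Eif3b and -0.01 for Eif3m.

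**Figure D3:**
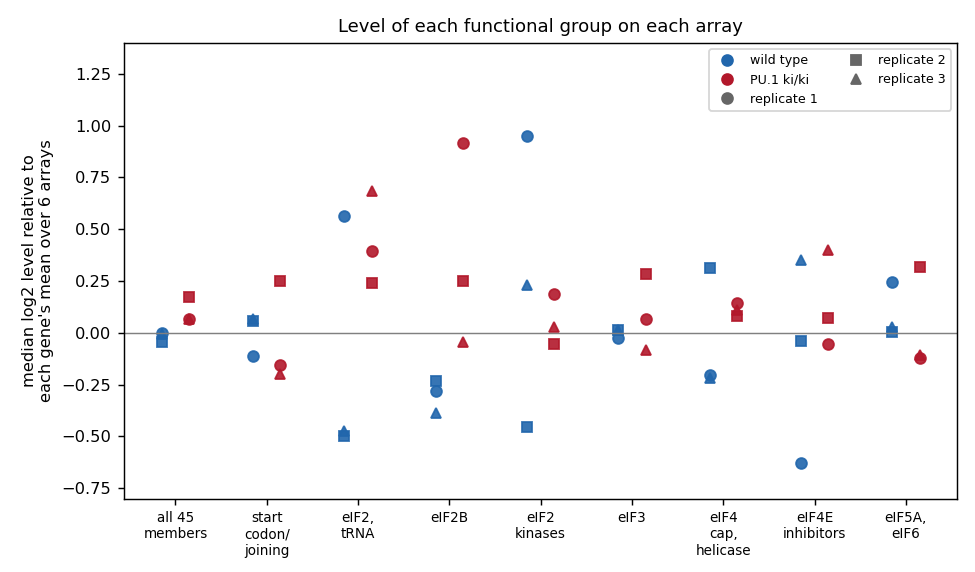
Median log2 level of each functional group (x axis) on each array, relative to each gene's mean over the 6 arrays (y axis), with wild type in blue and PU.1 ki/ki in red; Eif4a3, a group of 1 gene, is not drawn. Over all members the arrays lie between -0.04 and 0.17, and in the eIF2 group wild-type replicate 1 lies among the PU.1 ki/ki arrays at 0.56.

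Among the eIF4 factors that bind the cap and unwind the mRNA, 5 were higher and 4 lower. Their median difference of 0.14 was 0.03 after centring, 0.01 after quantile normalization, -0.01 without PU.1 ki/ki replicate 1 and -0.04 without wild-type replicate 3. Eif4e2, a cap-binding relative of eIF4E that represses translation, read 1998, 1250 and 1298 in PU.1 ki/ki and 852, 1056 and 1033 in wild type. The groups did not overlap, by a margin from 1056 to 1250, and the difference was 0.60 ± 0.24 (SE, 95% interval -0.0017 to 1.20, limma adjusted p = 0.604). Without PU.1 ki/ki replicate 1, its highest array, the difference was 0.38. Of the 4 other Eif4e2 probe sets 3 had the same sign. Among these the second brightest hardly differed, at 962, 680 and 805 against 682, 841 and 861 (0.03, with overlap). On 1 dimmer probe set, read at 106, 137 and 180 against 56, 46 and 16, the groups did not overlap either.

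Eif4e, the cap-binding protein itself, read 543, 666 and 685 in PU.1 ki/ki and 719, 349 and 736 in wild type. Wild-type arrays were highest and lowest, and the difference was 0.14 ± 0.34 (SE, 95% interval -0.74 to 1.02, limma adjusted p = 0.931). The second brightest Eif4e probe set read 689, 690 and 620 against 690, 210 and 529 (0.65). Dim probe sets differed by -0.47 and -0.28, and averaged over all its probe sets Eif4e differed by 0.01. Eif4g2, encoding DAP5, a scaffold without the eIF4E binding site, had the lowest p of those lower, with 3144, 1878 and 4172 against 4796, 4275 and 3296 (-0.49 ± 0.35, SE). The sign was negative on each of its 4 further probe sets too, but the brighter ones hardly differed. The second brightest read 2540, 2029 and 2355 against 3237, 2453 and 1622 (-0.03). The next read 497, 942 and 780 against 776, 789 and 633 (-0.03), and the rest were dim. Eif4g3, a scaffold that binds eIF4E, read 875, 1263 and 925 against 366, 1039 and 639 (0.69 ± 0.42, SE), with overlap. The helicases Eif4a1 and Eif4a2 differed by 0.15 and -0.20, and their cofactors Eif4b and Eif4h by -0.17 and 0.54. On its brightest probe set Eif4h read 1008 on wild-type replicate 2 and between 2712 and 3171 elsewhere, and the difference was 0.03 without that array. The second brightest kept the groups apart, at 2254, 2084 and 2323 against 2038, 1434 and 794 (0.74), with wild-type replicate 3 the lowest array. The next in brightness hardly differed (0.03). In all, 4 further Eif4h probe sets were higher in PU.1 ki/ki, and the remaining probe set differed by -0.45. Averaged over all its probe sets Eif4h differed by 0.51. Eif4e3 read 1079 on wild-type replicate 2 and between 125 and 263 elsewhere (-0.18). Eif4a3, the helicase of the exon junction complex, was dim, with 48, 43 and 43 against 49, 39 and 25 (0.29 ± 0.27, SE), close to the array medians of 41 to 46.

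Of the proteins that bind eIF4E and limit its use, Eif4enif1 did not overlap between groups. It encodes 4E-T, which carries eIF4E into the nucleus and to processing bodies, and read 377, 384 and 475 in PU.1 ki/ki and 105, 280 and 281 in wild type. The lowest array was wild-type replicate 1, not one of the arrays with much lost signal. The difference was 1.01 ± 0.44 (SE, 95% interval -0.11 to 2.14, limma adjusted p = 0.620), and 0.54 without that array. Eif4ebp1, an inhibitor released by mTORC1 signalling, read 420, 595 and 616 against 365, 710 and 818 (-0.15 ± 0.37, SE, limma adjusted p = 0.929). Its 3 probe sets all had a negative sign, and the wild-type values enclosed those of PU.1 ki/ki. Eif4ebp2, the related inhibitor, read 937, 475 and 1284 against 1759, 674 and 1242 (-0.45 ± 0.53, SE), while its 4 further probe sets had a positive sign. The second brightest read 678, 917 and 875 against 1287, 63 and 96 (2.03), with signal lost on wild-type replicates 2 and 3. Averaged over its 5 probe sets Eif4ebp2 differed by 0.76.

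Of the factors of start codon selection and subunit joining 3 were higher and 3 lower. Their median difference was 0.02, and -0.08 after centring and after quantile normalization, but 0.47 when all probe sets of a gene were averaged. Eif5, which triggers GTP hydrolysis by eIF2 at the start codon, read 1729, 2188 and 1855 in PU.1 ki/ki and 1729, 2066 and 2120 in wild type. The groups covered nearly the same range, and the difference was -0.04 ± 0.16 (SE, 95% interval -0.44 to 0.37). Of the other Eif5 probe sets 2 had the same sign and the rest the opposite. The second brightest differed by -0.02. The next did not overlap, at 2014, 1902 and 2163 against 1851, 1849 and 1449 (0.25). The dimmest read 334, 198 and 207 against 637, 813 and 249 (-1.08). Eif1ax, the X-linked gene of eIF1A, read 1969, 2654 and 1606 against 2613, 2215 and 2183 (-0.20 ± 0.23, SE). Eif1b, a close relative of eIF1, read 990, 1307 and 689 against 781, 1118 and 545 (0.30 ± 0.37, SE). Eif5b, the GTPase that joins the subunits, differed by 0.09, Eif1a by 0.60 and Eif1ad by -0.32. The probe sets of Eif1ad were divided, since its second read 466, 495 and 245 against 189, 52 and 14 without overlap (2.85, limma adjusted p = 0.578). A dim probe set of Eif1ax, at 83, 102 and 94 against 44, 31 and 34, had the lowest p of all 128 (1.34, limma adjusted p = 0.4004).

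Eif5a was the member that did not overlap in the direction of wild type. Its protein, the carrier of the modified lysine hypusine, helps ribosomes through difficult stretches during elongation. It read 7130, 6768 and 7204 in PU.1 ki/ki and 9566, 8291 and 7910 in wild type. All wild-type arrays were higher, by a small margin at a bright level (7034 ± 233 against 8589 ± 867, SD, n = 3), and the difference was -0.28 ± 0.13 (SE, 95% interval -0.61 to 0.05, limma adjusted p = 0.639). This probe set carries the manufacturer's suffix for probes shared by several transcripts, so its identity is less certain. The probe sets of 7 members carry this suffix or that for cross-matching probes, among them those of Eif4g2, Eif2b2 and Eif3e. The other Eif5a probe set read 2896, 2195 and 1892 against 2457, 2493 and 1887 (0.02). Eif6, which keeps the large subunit from joining too early, read 1551, 1882 and 1244 against 1629, 1117 and 1792 (0.05 ± 0.26, SE, and -0.06 after centring or quantile normalization). Eif5a2, a relative of Eif5a, lay around the array medians, at 10 to 64, and its difference of 0.02 cannot be read as a level.

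**Figure D4:**
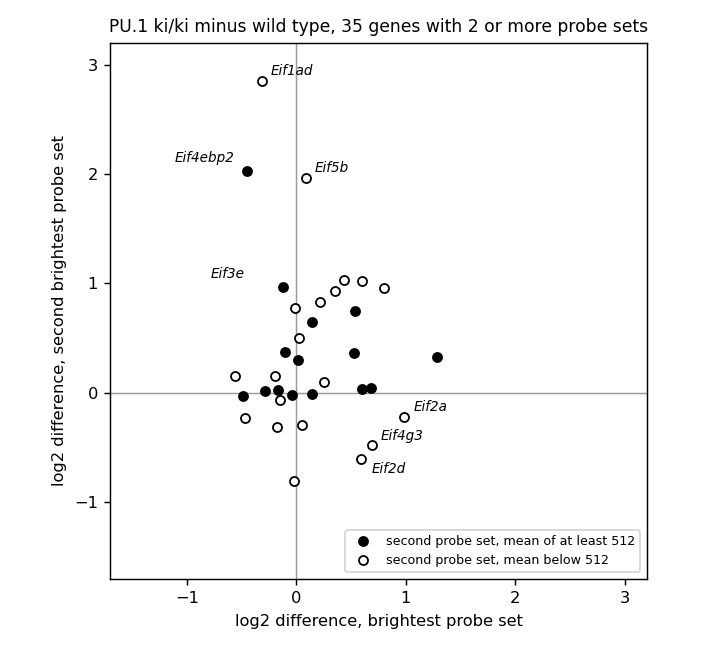
Log2 difference (PU.1 ki/ki minus wild type) of the brightest (x axis) against the second brightest probe set (y axis) of the 35 members with several probe sets; named genes differ by more than 1 between the probe sets. In 21 genes both have the same sign, and points at the upper left, such as Eif4ebp2, are higher in PU.1 ki/ki on the second probe set only.

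Probe sets of the same gene often differed in sign. Of 35 members with several probe sets, the second brightest had the sign of the brightest in 21 and the opposite sign in 14. Of all 128 probe sets, 18 did not overlap between groups (14.1%, where 12.1% of all probe sets did not), 17 of them higher in PU.1 ki/ki and 1 lower, beside 6.62% and 5.46% of all probe sets. Probe sets of a gene share its RNA and its arrays and are not independent. At an unadjusted p under 0.05 there were 9 of 128, all higher, where 8.28% of all probe sets were called, 4.6% higher and 3.68% lower. Averaging all probe sets of each gene gave 34 members higher and 11 lower with a median of 0.26, and 0 passed. The 8 probe sets of 7 genes with lost signal were all lost on wild-type replicate 2 or 3, and all 8 were higher in PU.1 ki/ki (0.59 to 2.14). A probe set picked for a low wild-type array reads lower in wild type almost by definition, so that sign is no separate result. In Eif3c a low array on 1 probe set was not low on the next. Its second brightest probe set read 2283 to 2665 on all 6 arrays, whereas the next read 61 on wild-type replicate 3 and between 1590 and 3256 elsewhere. Eif3e, a subunit also known as Int6, had 5983, 6391 and 5795 against 6225, 8479 and 5464 on its brightest probe set (-0.13) and 6023, 5320 and 6144 against 4916, 1067 and 4977 on the second (0.97). Wild-type replicate 2 was thus the highest array on one and the lowest on the other. When single arrays were left out, 22 of 45 members kept their sign throughout, 15 higher and 7 lower, and 23 did not. The sign was opposite against wild-type replicate 1 alone in 19 of 45.

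**Figure D5:**
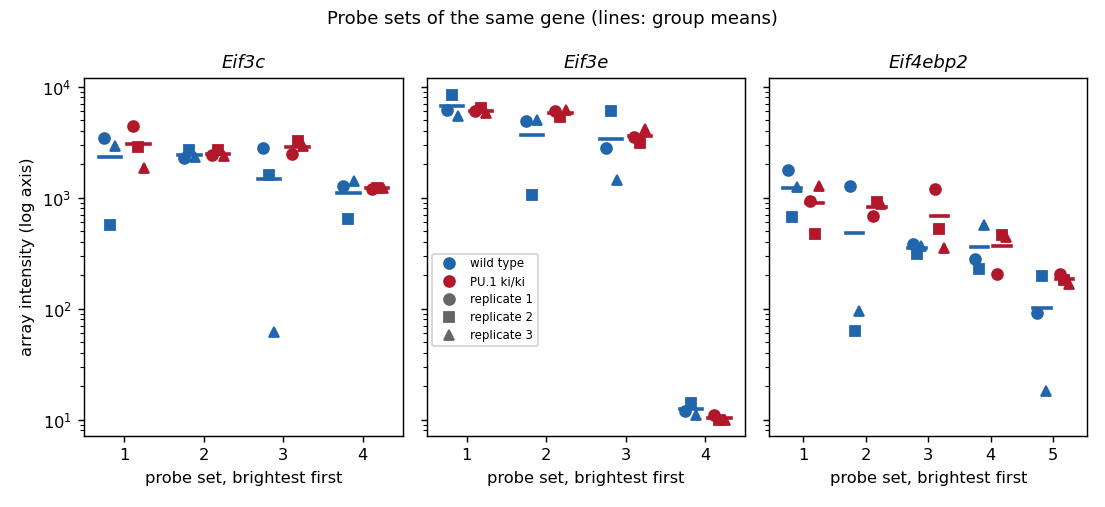
Array intensity on a log axis (y) of every probe set of Eif3c, Eif3e and Eif4ebp2, numbered from the brightest (x), with 1 symbol per array and lines at the group means. On some probe sets wild-type replicate 2 (blue square) or 3 (blue triangle) falls far below most other arrays, for instance at 61 for Eif3c and 63 for Eif4ebp2. Other probe sets of the same gene show no such fall, though more than 1 can show it, as at 564 for Eif3c and 18 for Eif4ebp2.

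A sequence feature that many mRNAs of the translation machinery share is the 5′ terminal oligopyrimidine (TOP) motif, a run of pyrimidines starting with a C at the first base, through which mTORC1 controls their translation. The stretch around the annotated transcription start was available for 36 members from RefSeq (GRCm38.p6), and a C followed by at least 4 C or T bases, beginning no more than 2 bases from the start on the sense strand (at any of a gene's annotated starts), was found in 7 of them (19.4%), beside 10.6% of 27025 genes. They were Eif1ad, Eif2ak4, Eif2b5, Eif2s3x, Eif3b, Eif3f and Eif3l. Counted from the C nearest the start that opens such a run, the longest had 11 bases, in Eif2s3x (chrX:94212632-94212656, minus strand) and Eif3f (chr7:108934410-108934434, plus strand). In both, pyrimidines also stand just before that C. They are shown from 5 bases before the start through the first 20 of the transcript, with the run so counted in capitals, beside the shorter runs of Eif2b5 (chr16:20498812-20498836, plus strand) and Eif3l (chr15:79075218-79075242, plus strand).
Eif2s3x: ttttcCTTTTCTCTCCgagcaagat
Eif3f: gctctCTCTCTTTCTCggcaagatg
Eif2b5: tctCTCCCTgcaactacaccttcgc
Eif3l: cttCTTCCgctctctcccacgggct
The members whose groups did not overlap had no such run, as the same windows of Eif2b4 (chr5:31193120-31193144, minus strand), Eif2a (chr3:58525816-58525840, plus strand) and Eif4e2 (chr1:87213906-87213930, plus strand, the most upstream of its 3 starts) show, and as held for Eif4enif1 and Eif5a.
Eif2b4: tgcacgccggaagttgtagtccgct
Eif2a: cgcccgctccggagagggagggcga
Eif4e2: cgccagccaaccggaagtagccggg
A match is a description of these letters at the annotated start, and the start used in HSCs may differ. The 7 members with a run had a median difference of 0.21, with 5 higher, and the 29 without one a median of 0.28, with 20 higher. The array measures transcript level, so the translation of these mRNAs was not measured.

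Neighbouring genes of translation and its control were read from 4 lists. None of their genes passed over all probe sets. Of 17 poly(A) and accessory initiation proteins 12 were higher and 5 lower (median difference 0.60), and 3 (17.6%) did not overlap, all higher, where 6.44% of all genes were higher without overlap. Pabpc1, the poly(A)-binding protein that joins both ends of an mRNA through the eIF4G scaffold, read 4517, 4659 and 4144 in PU.1 ki/ki and 2754, 3109 and 2950 in wild type. All PU.1 ki/ki arrays lay higher (0.60, limma adjusted p = 0.463). Abcf1, an ATPase that works with eIF2, read 4289, 5525 and 4526 against 4205, 1957 and 1864 (0.94), where wild-type replicate 1 lay just below the PU.1 ki/ki arrays. Pdcd4, which blocks the helicase eIF4A, read 4200, 3798 and 3858 against 3646, 3725 and 334 (1.25). The list's median was 0.08 against wild-type replicate 1 alone. Of the lower genes, Dhx29, a helicase of scanning ribosomes, differed by -0.92 and Paip2, which withholds poly(A)-binding protein, by -0.34.

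Elongation and termination factors had a median difference of -0.08, with 5 of 13 higher and 0 without overlap, and a median of 0.09 when all probe sets of a gene were averaged. Eef1e1, of the tRNA synthetase complex, read 455, 553 and 236 against 140, 131 and 249 (1.23), and Eef1b2, an exchange factor for the elongation factor, 5651, 6003 and 6589 against 4015, 5980 and 4868 (0.31). In the other direction Gfm1, a mitochondrial elongation factor, differed by -0.45 and Eef1d by -0.29. For mTORC1 and MNK signalling the median was -0.24, with 5 of 13 higher, and it was -0.51 without wild-type replicate 3 and -0.03 without PU.1 ki/ki replicate 2. Without overlap 1 gene was higher and 2 were lower (23.1% in all, beside 12.8% of all genes). Rheb, the GTPase that activates mTORC1, read 441, 464 and 651 against 652, 815 and 655 (-0.46, limma adjusted p = 0.638). The groups were separated only by 651 and 652. Rptor, the substrate-binding subunit of mTORC1, read 89, 134 and 43 against 142, 138 and 209 (-0.99). Deptor, an mTOR inhibitor, read 937, 912 and 698 against 470, 553 and 100 (1.50). Tsc2, the brake on Rheb, differed by -1.21 with overlap, and Rps6, a ribosomal protein phosphorylated downstream, by 1.60, with 83 on wild-type replicate 3.

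Genes of the eIF2 phosphatase and of the stress response that follows eIF2 phosphorylation were mixed, with 5 of 14 higher and a median of -0.16, which was 0.09 when all probe sets of a gene were averaged. Of the 14 genes 2 (14.3%) did not overlap, 1 higher and 1 lower, close to the 12.8% of all genes. Cebpb, a stress-responsive transcription factor, read 172, 97 and 134 against 229, 485 and 323 (-1.33, limma adjusted p = 0.509), without overlap. Nck1, an adaptor of the eIF2 phosphatase, read 528, 522 and 412 against 408, 73 and 67 (1.93), also without overlap but by a margin of 408 to 412. Ddit3, encoding the stress factor CHOP, differed by 1.32 with overlap, and Atf3 was near the table's minimum at 11 to 25.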

How the data were processed

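The table analysed holds intensities, 1 value per probe set and array, deposited by the authors. The submitters' processing notes name RMA, without a version. That method usually returns log2 values, whereas the deposited intensities are whole numbers on a linear scale with a minimum of 10. How they were converted is not given in the sources used here. Groups and replicate numbers came from the sample titles; a sample description that speaks of embryos goes against every other label and was set aside. Of the table's entries 64 controls were left out, leaving 45037 probe sets, and 34945 had 1 gene symbol in the platform annotation. For each probe set limma 3.58.1 in R 4.3.3 compared the genotypes on log2(intensity + 1), using lmFit, then eBayes, with no further covariate. P-values were adjusted over the whole table by Benjamini and Hochberg's method. Adding 1 understates differences of dim probe sets. The fit was also tried on simulated data. No conclusion is drawn from that trial for the real arrays, whose spread was larger in wild type for 74.4% of genes. Members, functional groups and neighbouring lists were chosen with earlier results of these data known, so a list is described by counts and medians without a test. Members given array by array were those without overlap, the lowest p in each direction of each functional group, a fixed panel (Eif4e, Eif4ebp1, Eif2b5, Eif3a, Eif5, Eif5a, Eif6; Eif4g1 and Eif2s1 were not analysed here), and others chosen after their values were seen. Of each neighbouring list, up to 2 genes in each direction were named by lowest p, besides genes without overlap. The number of arrays limits the precision.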

Additional observations from a re-analysis of the deposited data

How the results depend on the processing

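In every setting run 0 of 45 members passed adjustment. Members with an unadjusted p under 0.05 (limma) numbered 2 as reported, where 8.66% of all genes were called. They numbered 4 with a pseudocount of 16 (where 8.61% of all genes were called). With single arrays left out they numbered 2 to 5 (where 5.67 to 17.0% of all genes were called). The count of members without overlap was 5 as reported (where 12.8% of all genes did not overlap). It was 7 to 12 with single arrays left out (where 19.1 to 31.8% of all genes did not overlap). Against wild-type replicate 1 alone it was 25 (54.0% of all genes). The members' median of 0.15 was 0.04 after quantile normalization (0.035) or centring (0.040), 0.26 as a mean of all probe sets of a gene, 0.063 against wild-type replicate 1 alone and 0.052 to 0.28 with single arrays left out. As a mean of all probe sets, start codon factors had 0.47, eIF2 0.18 and eIF4E inhibitors 0.76. Against wild-type replicate 1 alone, medians were -0.11 for eIF2, -0.55 for its kinases, -0.13 for Eif4a3, 0.55 for eIF4E inhibitors and -0.23 for eIF5A and eIF6. With single arrays left out the median of eIF5A and eIF6 was -0.30 to 0.12. Signs reversed for Eif3a (-0.070 with quantile normalization, -0.095 centred, -0.088 with array weights, -0.49 against wild-type replicate 1) and for Eif6 (-0.062 with quantile normalization, -0.055 centred, -0.12 as a mean of probe sets, -0.084 against wild-type replicate 1). As a mean of probe sets they also reversed for Eif1ax (0.43), Eif2b2 (0.046), Eif3i (0.13) and Eif4ebp2 (0.76), and with the brightest probe set free of cross-matching suffixes for Eif2b2 (0.15). Against wild-type replicate 1 they reversed for Eif2ak1 (-0.55), Eif2b2 (0.075), Eif4a3 (-0.13), Eif4e (-0.19), Eif4ebp1 (0.55) and Eif5 (0.15). With single arrays left out, Eif2ak1 lay at -0.13 to 1.47, Eif2b5 at -0.049 to 0.46, Eif3a at -0.61 to 0.38, Eif4e at -0.21 to 0.33, Eif4ebp1 at -0.51 to 0.074, Eif5 at -0.13 to 0.037 and Eif6 at -0.15 to 0.20. The cause of these changes was not tested. Against wild-type replicate 1 alone the fit takes that array to vary like the PU.1 ki/ki arrays. Whether equal replicate numbers mark paired samples cannot be settled here. Deviations of equally numbered arrays from their group means correlated at -0.016, 0.021 and -0.017. With 3 arrays per group such values cannot exclude a pairing. With the replicate block the counts were 0 after adjustment, 2 at an unadjusted p under 0.05 and 5 without overlap.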
